A study of Rattus norvegicus with 20 samples.

Results

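The levels and read forms of 7 neuroimmune miRNAs were followed in the adBNST, the anterodorsal division of the bed nucleus of the stria terminalis, a small forebrain nucleus that takes part in anxiety and stress responses. They were rno-miR-146a-5p, rno-miR-146b-5p, rno-miR-155-5p, rno-miR-223-3p, rno-miR-21-5p, rno-miR-142-5p, and rno-miR-142-3p. They were chosen by name, and the reads assigned to each name were added up in each library. These 7 are among 617 miRNAs with reads and among the 500 that had at least 10 reads in at least 5 of the 20 libraries and were tested. The RNA came from 20 male and female Sprague-Dawley rats with no genetic or drug manipulation, 5 in each of 4 groups. All rats were weaned on postnatal day 21, then kept alone (socially isolated, SI) or with same-sex littermates, 3 to a cage (group housed, GH), for 6 weeks. At 9 weeks of age they went through the elevated plus maze, a test of anxiety-like behavior, so every group had met that test before the brains were taken. Each library came from the bilateral punch of 1 rat, and a punch holds neurons, glia, vessels, and the blood in them. In the names of the rats, G is GH, I is SI, and the last letter is the sex.

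The microRNAs of this set are known from the immune system. miR-146a is induced by inflammatory signals through NF-κB, and miR-146a and miR-146b dampen Toll-like receptor signaling by repressing its adaptors. miR-155 is made from a non-coding host transcript that macrophages, lymphocytes, and microglia switch on when activated, and it promotes inflammatory responses. Both arms of miR-142 are restricted to blood-forming cells and their descendants, microglia included, whereas miR-223 marks neutrophils and other myeloid cells. miR-21 is found in many cell types, among them astrocytes, vessel cells, and microglia, and rises after injury in many tissues. A miRNA finds its targets chiefly through its seed, the bases from position 2 to position 8 counted from its 5′ end, so the sequences below show which miRNAs can share targets and what a moved 5′ end changes.

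The mature sequences, from RefSeq (build GRCr8), are written 5′ to 3′ with the seed in capitals.
miR-146a-5p: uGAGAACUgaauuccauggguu
miR-146b-5p: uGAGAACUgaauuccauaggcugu
miR-155-5p: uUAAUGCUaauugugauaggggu
miR-223-3p: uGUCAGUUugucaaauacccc
miR-21-5p: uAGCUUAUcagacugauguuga
miR-142-5p: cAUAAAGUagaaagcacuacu
miR-142-3p: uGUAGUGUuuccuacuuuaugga
miR-146a-5p and miR-146b-5p had the same seed. Over their 22 shared positions, counted from the 5′ end, 20 were identical and the substitutions were G18A and U21C (miR-146a base before the position, miR-146b base after it), and miR-146b-5p had 2 more bases at its 3′ end. No other mature name among the 693 in the table had the seed of any of these miRNAs. In this annotation miR-146a-5p lies at chr10:28350053-28350074 on the minus strand, within the span of the non-coding gene LOC134480673. miR-146b-5p lies at chr1:255144874-255144897 on the plus strand, in a span that overlaps the protein-coding gene C1h10orf95. miR-155-5p lies at chr11:37261117-37261139 on the plus strand, within its host gene Mir155hg. miR-223-3p lies at chrX:65151450-65151470 on the plus strand, within the non-coding gene LOC120099372. miR-21-5p lies at chr10:71902653-71902674 on the minus strand, with no other gene of the table over it. miR-142-5p (chr10:73055119-73055139) and miR-142-3p (chr10:73055155-73055177) lie on the plus strand in 1 hairpin, in a span that overlaps Tspoap1. Whether these spans fall in an exon or an intron was not analysed here.

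The libraries held between 3428930 and 11383055 miRNA reads, with between 367 and 530 miRNAs read. Sequences read only once were not listed in any library, so a miRNA listed at 0 had no sequence with 2 or more reads. The SI female I16F stood apart from the other libraries, with the lowest number of miRNAs read (367) and the highest share of reads in its 10 most counted miRNAs (59.5%, against 44.8% to 54.7% in the others). For I17M and I17F the label and the name of the deposited file give opposite sexes, and both rats were placed by their label. Results of the neuroimmune miRNAs that change without these libraries, or with the I17 libraries exchanged, are given with both values. No such values are given for other single miRNAs, such as markers of cell types. The neuronal miRNAs miR-124-3p, miR-9a-5p, and miR-128-3p together had 68485 to 178543 CPM (reads of a miRNA scaled to the miRNA reads of its library), so neuronal miRNAs were abundant in every library.

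The 7 miRNAs ranged over nearly the whole scale of abundance. miR-21-5p had a mean of 1113 ± 921 CPM (SD, n = 20) and rank 90 of the 500 miRNAs, and miR-146b-5p had 1026 ± 225 CPM (SD, n = 20) and rank 99. These neighbors did not differ beyond their spread, since miR-21-5p was the higher in 8 rats and miR-146b-5p in 12. miR-146a-5p followed at 81.5 ± 47.3 CPM and rank 233, below miR-146b-5p in all 20 rats. miR-155-5p had 22.4 ± 13.3 CPM and rank 303, and was below miR-146a-5p in 19 of 20 rats. miR-142-5p, at 17.1 ± 11.3 CPM and rank 329, was below miR-155-5p in 12 rats and above it in 8, so these neighbors also overlapped. The scarcest were miR-223-3p, at 3.21 ± 3.46 CPM and rank 434, and miR-142-3p, at 1.76 ± 2.42 CPM and rank 470. Together miR-146b-5p and miR-21-5p took 85.2% to 96.8% of the reads of the 7 in a library (median 95%). Counts of different miRNAs also depend on how well each ligates to the adapters, which was not tested.

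**Figure D1:**
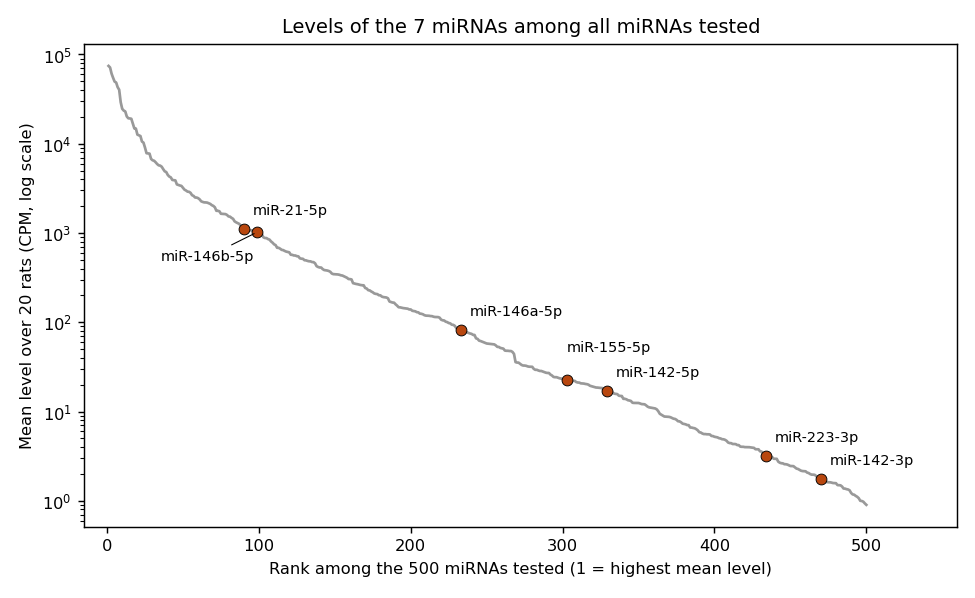
Mean level over 20 rats in CPM (vertical axis, log scale) against rank among the 500 miRNAs tested (horizontal axis); the gray line is all miRNAs and the points are the 7 miRNAs. miR-21-5p and miR-146b-5p lie side by side, at 1113 and 1026 CPM, and miR-223-3p and miR-142-3p lie close to the low end.

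For the blood-cell miRNAs, reads were too few for a fold change. miR-223-3p had 422 reads in all and was listed at 0 in 8 of 20 libraries. It was read in 4 of 5 GH males (31, 8, 24, and 33 reads), in 3 of 5 SI males (66, 16, and 54 reads), in 4 of 5 GH females (53, 52, 5, and 31 reads), and in 1 of 5 SI females (49 reads in I14F). miR-142-3p had 221 reads in all and was listed at 0 in 11 of 20 libraries. It was read in 2 GH males (24 and 49 reads), 2 SI males (37 and 14 reads), 4 GH females (15, 39, 7, and 18 reads), and again in 1 SI female (18 reads in I14F). Read numbers of each miRNA thus overlapped between all groups, and in the edgeR quasi-likelihood fit neither had an adjusted p below 0.43 in the comparisons of housing, in either sex or in both together.

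The read sequences showed which form of each miRNA was present. The files give, for every distinct sequence, its difference from the reference at each end, and 250 of the 250 distinct sequences of these miRNAs without a mismatch could be rebuilt from those fields and found in their hairpin. The reads began at the reference position in 98.5% of miR-21-5p, 97.7% of miR-146b-5p, 97.9% of miR-155-5p, 96.2% of miR-223-3p, and 92.1% of miR-146a-5p reads. Their seed was therefore the annotated seed in most molecules read. miR-142-5p was the exception, since 1968 of its 2090 reads (94.2%) began 2 bases upstream of the annotated start. This held for most reads in each of the 19 libraries with reads of it, with shares from 63.9% to 100% (the rat with 63.9%, G15F, had 72 reads and a 95% Wilson interval of 52.4% to 74.0%). The intervals cover counting error only. In 10 of these libraries every read began upstream.

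The commonest miR-142-5p read (66.4% of its reads, found in 18 libraries), as DNA with bases 2 to 8 in capitals, is shown above the reference and the RefSeq hairpin, in which the capitals mark the annotated arms.
Commonest read: cCCATAAAgtagaaagcact
Reference miR-142-5p: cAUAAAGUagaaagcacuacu
Mir142 hairpin: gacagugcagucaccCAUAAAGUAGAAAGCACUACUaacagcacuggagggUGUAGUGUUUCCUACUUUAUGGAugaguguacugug
The bases at positions 2 to 8 of this read, CCATAAA, are the seed of no mature miRNA in the table. The next most common forms had the same upstream start and ended at other bases (12.3% and 9.86% of reads). By group, the pooled share with the upstream start was 97.7% in GH males, 100% in SI males, 86.1% in GH females, and 92.8% in SI females. The single rats ran from 94.4% to 100% in GH males and from 63.9% to 95.2% in GH females, and from 80.7% to 100% in the 4 SI females with reads, while all 5 SI males were at 100%. SI and GH rats of the same sex overlapped, and so did males and females within each housing. Since this pattern was seen in the data, no test was run on it. On the other arm, 63 of 221 miR-142-3p reads (28.5%, in 3 of 9 libraries with reads) began 1 base downstream of the reference start.

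The 3′ ends varied more, as the commonest reads that differ from the reference show (as DNA, seed in capitals, from the deposited sequences).
miR-146b-5p, 2 bases shorter: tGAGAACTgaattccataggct
miR-21-5p, 1 base longer: tAGCTTATcagactgatgttgac
miR-146a-5p, 1 base longer: tGAGAACTgaattccatgggtta
miR-223-3p, 1 base longer: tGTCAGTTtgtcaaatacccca
In miR-146b-5p, 55.6% of reads had the reference sequence and 40.6% were shorter at the 3′ end, the commonest by 2 bases (17% of reads). miR-21-5p had 41.5% reference reads and 43.0% that ran on along the hairpin, the commonest by the single base C (30.3% of reads). In miR-146a-5p these shares were 39.3% and 31.2%, and in miR-155-5p they were 38.5% and 41.7%. miR-223-3p was read mostly in longer forms. Its commonest reads were 1 base (38.9%) and 2 bases (27.0%) longer than the reference, and the reference sequence itself made up 4.74% of reads, all in 1 library. Adenines added without a template were found on 11.4% of miR-21-5p reads and 11.7% of miR-155-5p reads.

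**Figure D2:**
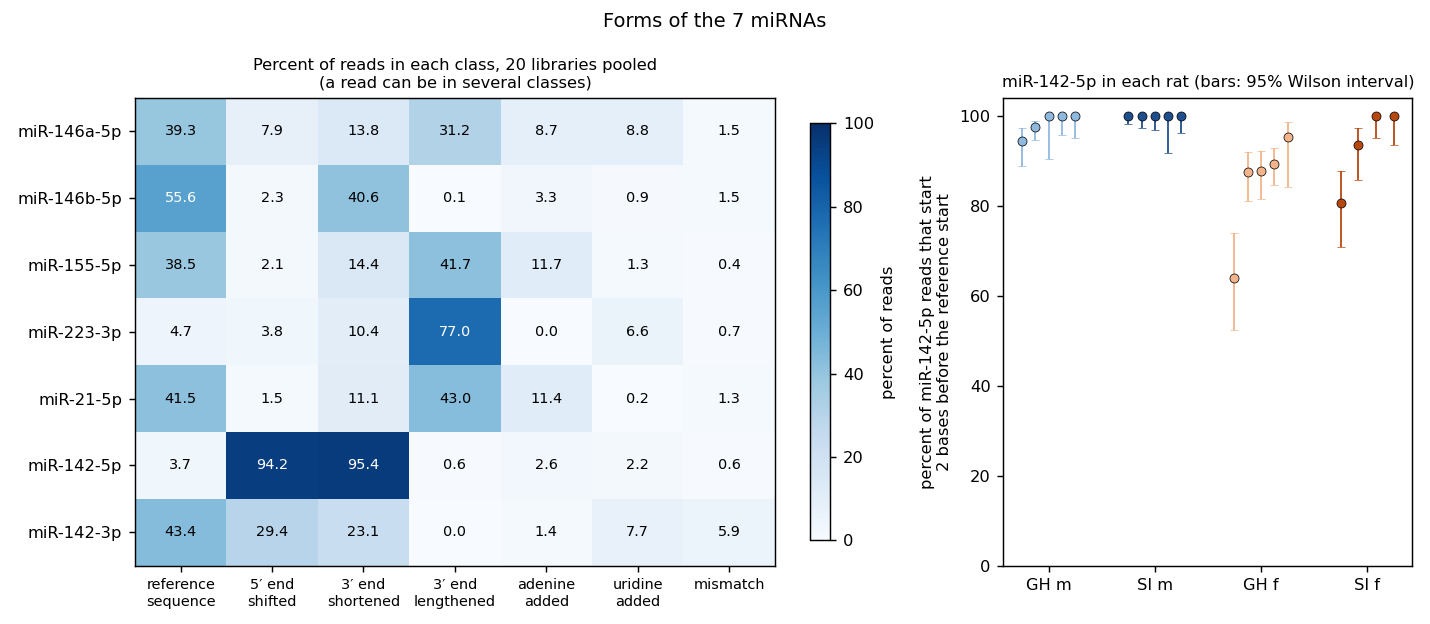
Left, percent of the reads of each miRNA that fall in each class of form, over the 20 libraries pooled. Right, percent of miR-142-5p reads that start 2 bases upstream of the reference in each rat with reads (19 points by group, bars are 95% Wilson intervals); every point is above 60%, with the lowest, 63.9%, in a GH female.

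The comparison of SI with GH rats asks which of these miRNAs differ in adulthood after isolation through adolescence. Levels are given as log2 normalized counts, that is, reads scaled to the effective library size with 1 added, and fold changes come from 1 edgeR model of the 4 groups with p-values adjusted over all 500 miRNAs. Nothing in the labels gives a batch, and the p-values measure the spread between the rats of a group. GH rats lived with littermates, and which of those sequenced shared a cage is not given, so they may not be independent. The paper states that female samples were picked for high RNA integrity and for a range of estradiol levels. Adjusted p was below 0.05 for 0 of the 7 miRNAs in males, where 4% of all 500 passed (2.6% lower and 1.4% higher), and for 0 of 7 in females, where 0.4% passed, all of them lower. At an unadjusted p of 0.05, 2 of 7 in males (23% of all) and 1 of 7 in females (20.8% of all) were below the threshold. With the effects of both sexes averaged, 1 of 7 was called, miR-21-5p, which was lower in SI rats; 17.6% of all miRNAs passed in this comparison, 10.2% as lower and 7.4% as higher. The same 1 of 7 was below an unadjusted p of 0.05, compared to 32.2% of all. DESeq2, which gave an adjusted p to 4 of the 7 in males and 5 in females, called 0 in males and 1 in females (miR-21-5p), compared to 19.8% and 17.9% of all miRNAs with an adjusted p. limma voom called 1 in males (miR-146a-5p), compared to 17.4% of all, and 0 in females, compared to 0.6%. No miRNA of the 7 had SI and GH rats that did not overlap, compared to 13.8% of all miRNAs in males and 2% in females. The median log2 fold change of the 7 was −0.07 in males, −1.37 in females, and −0.72 for both sexes, beside −0.01, −0.13, and −0.00 over all 500. Without miR-223-3p and miR-142-3p, whose reads were too few for a fold change, the median of the other 5 was −0.07 in males, −0.79 in females, and −0.10 for both sexes.

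**Figure D3:**
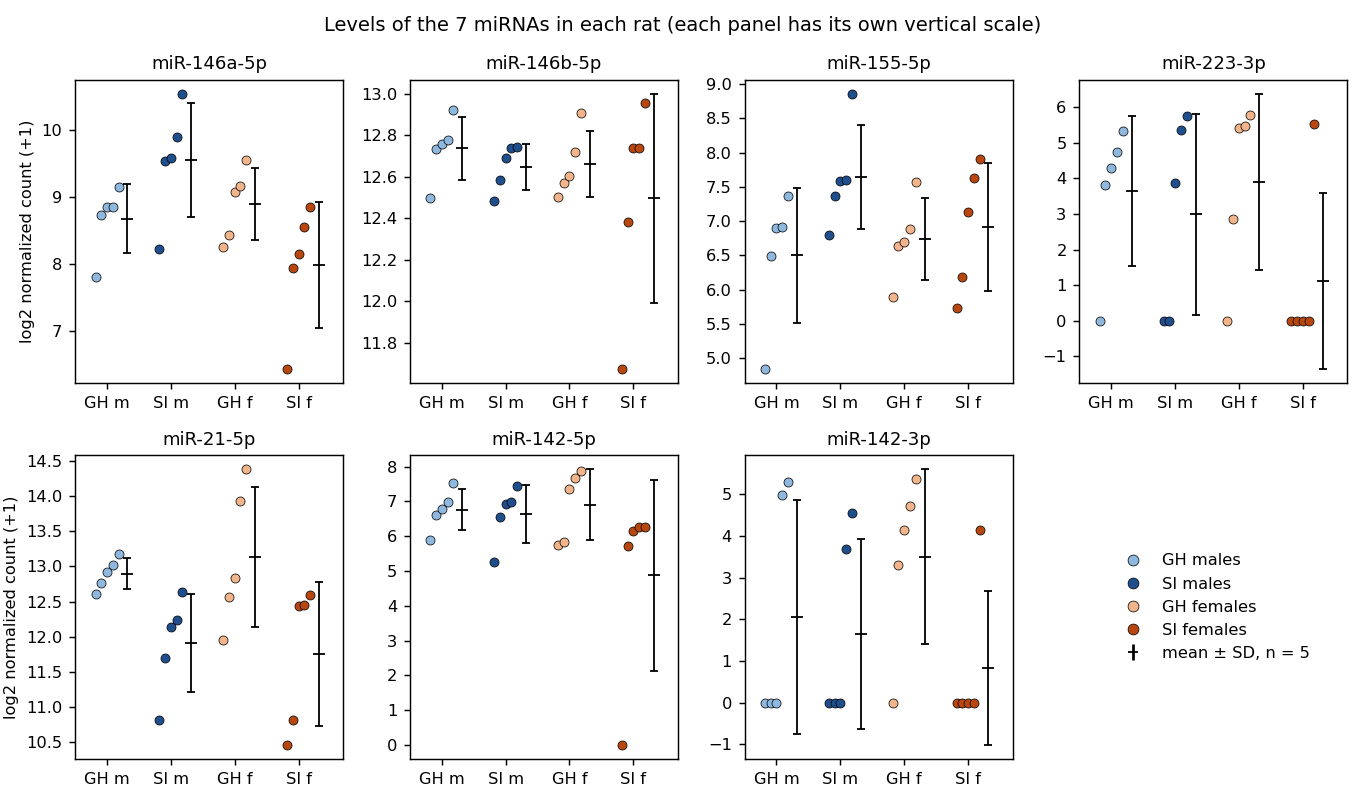
Log2 normalized counts (1 added) of the 7 miRNAs in each of the 20 rats, by group, with mean and SD (n = 5); panels have different scales. SI rats are low in miR-21-5p, with values down to 10.46, and the lowest miR-146b-5p value, 11.67, is that of I16F.

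miR-21-5p, which represses the tumor suppressor Pdcd4, was 2.21 times lower in SI than in GH rats over both sexes (log2 fold change −1.15, standard error 0.31, adjusted p = 0.0132 with edgeR). In GH males its levels were 13.18 in G16M, 12.61 in G19M, 13.02 in G18M, 12.92 in G20M, and 12.76 in G21M. In SI males they were 11.70 in I15M, 12.24 in I19M, 12.14 in I22M, 10.81 in I17M, and 12.63 in I20M. Thus 4 of 5 SI males lay below every GH male, and I20M lay just above the lowest of them. In GH females the levels were 11.96 in G15F, 12.83 in G12F, 14.38 in G16F, 12.56 in G13F, and 13.93 in G17F. In SI females they were 12.44 in I14F, 12.59 in I10F, 10.82 in I17F, 12.44 in I12F, and 10.46 in I16F. All 5 SI females lay below the GH mean of 13.13, but only 2 lay below every GH female, and GH females were more spread (SD 1.0, n = 5) than GH males (SD 0.22, n = 5).

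Within males alone the log2 fold change of miR-21-5p was −0.89 (standard error 0.43, adjusted p = 0.217 with edgeR). Within females it was −1.41 (standard error 0.43, adjusted p = 0.0838 with edgeR), and −0.91 without I16F, I17M, and I17F. These values did not pass the threshold, although females passed it with DESeq2 (adjusted p = 0.0182) and males when only the male groups were fitted with edgeR (adjusted p = 0.0346). The difference between the sexes was −0.52 (standard error 0.60, adjusted p = 0.918, edgeR). The call over both sexes was kept in each of the 20 fits that left out 1 rat, with log2 fold changes from −1.27 to −0.95 and edgeR adjusted p from 0.0095 to 0.0366. Without the libraries I17M and I17F together it was lost at the margin (−0.96, adjusted p = 0.0514, edgeR), and without these and I16F it was kept (−0.81, adjusted p = 0.0425, edgeR). Over the 10 alternatives other than single rats, its adjusted p ran from 0.00128 to 0.0514. The difference lay over its read forms, of which 16 were tested. These forms are parts of the same sum in the same libraries, so their directions are not independent of it. Of the 16 forms, 14 were lower in SI males and 16 in SI females, and the median log2 fold change was −0.99 and −1.68, compared to −0.05 and −0.12 over all 10290 isomiRs. No form passed by itself (lowest adjusted p = 0.0938 over both sexes, edgeR).

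The listed markers of vessels and of oligodendrocytes were low in the same SI libraries, whereas estimates for other arms of their hairpins went in both directions. The endothelial marker miR-126a-3p had a log2 fold change of −1.11 over both sexes (adjusted p = 0.0108, edgeR), and the other, miR-126a-5p, had −0.63 and did not pass. Their summed level in SI males, 261 to 647 CPM, lay below that in GH males, 1003 to 1237 CPM. SI females had 66.5 to 1135 CPM, and GH females had 913 to 2697 CPM. Of the mural markers, made by the smooth muscle cells and pericytes of vessels, miR-143-3p passed at −0.99 (adjusted p = 0.00594, edgeR) and miR-145-5p, at −0.63, did not. Summed, the mural pair had 4094 to 6300 CPM in SI males and 9499 to 16291 CPM in GH males, again without overlap. SI females ran from 1707 to 14257 CPM and GH females from 12048 to 23834 CPM. Of the oligodendrocyte markers, miR-338-3p passed at −1.74 (adjusted p = 0.0162, edgeR) and miR-219a-5p, at −2.07, did not (adjusted p = 0.0891, edgeR). Summed, they had 18 to 51.1 CPM in SI males and 57.2 to 154 CPM in GH males, and 0 to 66.8 CPM in SI females and 67.8 to 345 CPM in GH females, without overlap in either sex but by a narrow gap in females. Among all single miRNAs, 13.8% did not overlap in males and 2% in females. The more abundant arms of the oligodendrocyte hairpins, looked at after the data were seen, were not lower. The arm miR-338-5p was higher in SI rats over both sexes, at 0.89 (adjusted p = 0.0039, edgeR), with 2015 to 2753 CPM in SI males and 1146 to 1544 CPM in GH males. It had 1329 to 2723 CPM in SI females and 846 to 1998 CPM in GH females, with overlap. The arm miR-219a-2-3p had 2283 to 5844 CPM over all rats and an estimate of 0.30 that did not pass (adjusted p = 0.305, edgeR). Of the mural hairpins, the arm miR-145-3p was read in every library and was lower, like the markers, at −0.37 over both sexes. The arm miR-143-5p had an estimate of 2.32, but it was at 0 in 12 of 20 libraries. Neither mural arm passed. In single libraries miR-338-3p was at 0 in 1, miR-219a-5p in 3, and miR-126a-5p in 1. I16F had the lowest endothelial and mural sums of the SI females, and also their lowest neuronal sum, 68485 CPM. I17M had the lowest endothelial and oligodendrocyte sums of the SI males. No fit of these markers without I16F, I17M, and I17F is given. The part of vessel cells and oligodendrocytes in the miR-21-5p difference was not tested. In a punch, fewer cells of a type and less RNA per cell cannot be told apart.

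Among the 4 erythroid miRNAs, 1 was called over both sexes, compared to 17.6% of all 500 miRNAs (7.4% as higher). This was miR-486, which muscle also makes, at 0.92 (adjusted p = 0.0039, edgeR). It made up nearly all of their sum, which was 1359 to 3151 CPM in SI males and 1054 to 1403 CPM in GH males, and 1399 to 3360 CPM in SI females and 960 to 1443 CPM in GH females. The defining red-cell miRNA miR-451-5p was at 0 in 4 libraries and did not pass, with an estimate of 0.09 and a standard error of 0.94.

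**Figure D4:**
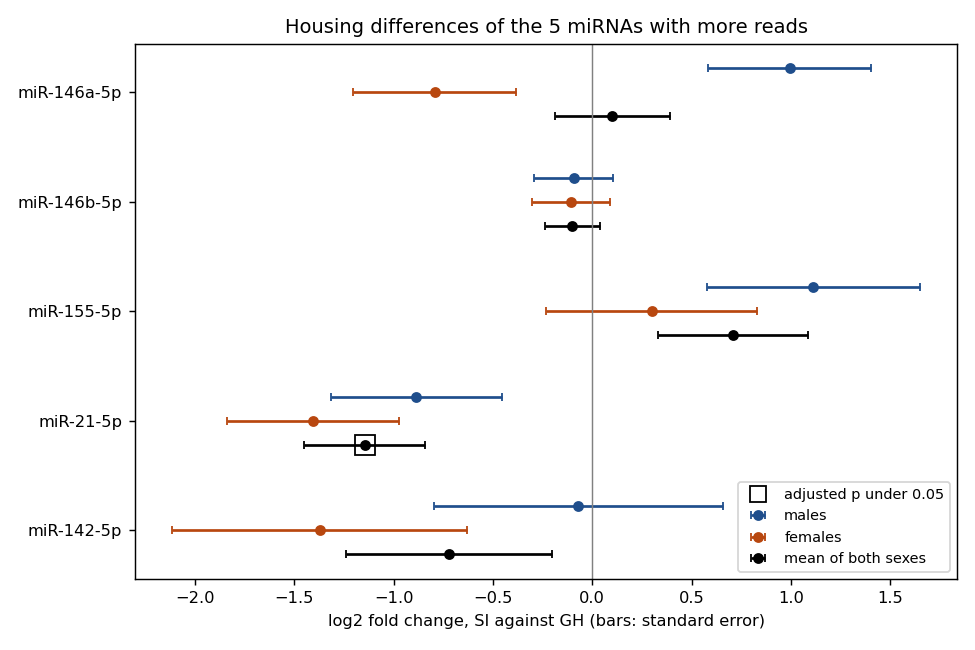
Log2 fold change of SI against GH (horizontal axis) for the 5 miRNAs with more reads, in males, in females, and as the mean of both sexes; bars are standard errors and the open square marks the value with an adjusted p under 0.05, miR-21-5p over both sexes at −1.15. For miR-146a-5p the estimates lie on either side of 0, at 1.0 in males and −0.79 in females.

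miR-146a-5p, a brake on NF-κB signaling that represses Traf6 and Irak1, had opposite signs in the sexes. In GH males its levels were 7.80 in G16M, 8.84 in G19M, 8.84 in G18M, 8.73 in G20M, and 9.15 in G21M. In SI males they were 9.90 in I15M, 9.59 in I19M, 9.54 in I22M, 8.21 in I17M, and 10.54 in I20M. Except for I17M, all SI males were above every GH male. The levels in GH females were 8.44 in G15F, 9.16 in G12F, 9.55 in G16F, 8.25 in G13F, and 9.07 in G17F. In SI females they were 7.94 in I14F, 8.85 in I10F, 8.55 in I17F, 8.15 in I12F, and 6.42 in I16F, so that all 5 were below the GH mean of 8.89 and 3 were below every GH female. The log2 fold change was 1.0 in males (standard error 0.41, adjusted p = 0.135 with edgeR). In females it was −0.79 (standard error 0.41, adjusted p = 0.282 with edgeR).

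The interaction of housing and sex, the female minus the male difference, was −1.79 for miR-146a-5p (standard error 0.58, unadjusted p = 0.00523 and adjusted p = 0.464 with edgeR), the lowest unadjusted p but 4 among the 500. The adjusted p did not pass, and 0 of the 7 miRNAs were called in the interaction with edgeR, DESeq2, or limma voom, compared to 0.4% of all with edgeR. At an unadjusted p of 0.05 it was the single one of the 7, compared to 7.2% of all. Between SI females and SI males the log2 fold change of miR-146a-5p was −1.55 (standard error 0.42, adjusted p = 0.191, edgeR), and between GH females and GH males it was 0.23 (standard error 0.41, adjusted p = 0.996, edgeR). With edgeR neither comparison of the sexes called any of the 500 miRNAs (0% in both). At an unadjusted p of 0.05, 1 of 7 passed between the sexes in SI rats, miR-146a-5p (10% of all), and 0 of 7 in GH rats (2.4% of all), where DESeq2 and limma voom also called 0 of 7. DESeq2 called it between SI females and SI males (−1.53, adjusted p = 0.0405), where 0.853% of all miRNAs with an adjusted p were called. In males it was called by limma voom (0.89, adjusted p = 0.0342) and in edgeR without I16F, I17M, and I17F (1.20, adjusted p = 0.0146). The SI male I20M had the highest level of miR-146a-5p, and without it the male value was 0.63. The SI female I16F had the lowest, and without it the female value was −0.53.

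miR-146b-5p, with the same seed, was among the steadiest miRNAs of the study. Its log2 level had an SD of 0.27 over 20 rats, the 15th lowest of 500, compared to 0.89 for miR-146a-5p. The lowest, median, and highest level were 11.67, 12.73, and 12.95, and the 19 rats other than I16F lay between 12.38 and 12.95. The log2 fold change was −0.09 in males (standard error 0.20, adjusted p = 0.890 with edgeR). In females it was −0.11 (standard error 0.20, adjusted p = 0.782 with edgeR). In reads, miR-146b-5p outnumbered miR-146a-5p by 3.85 to 38.5 times. The ratio was 26.0, 15.3, 15.1, 16, and 13.7 in GH males and 7.20, 8, 9.20, 22.3, and 3.85 in SI males, where I17M again held the high value. It was 17.6, 11.8, 10.2, 19.1, and 11.6 in GH females and 27.9, 17.3, 14.3, 24.1, and 38.5 in SI females. On the log2 scale the SI minus GH difference of the ratio was −0.97 in males (exact permutation test, two-sided, p = 0.0397) and 0.75 in females (exact permutation test, two-sided, p = 0.0476). Over the 4 ratios tested both had an adjusted p of 0.0952 and did not pass. With the I17 libraries exchanged, both adjusted values were 0.0476 in the same exact permutation test, with differences of −1.10 in males and 0.88 in females. These ratios hold the same miR-146a-5p reads as its fold changes above, so their tests are not independent of them. The other 2 ratios, of miR-142-5p to miR-142-3p in each sex, had p = 0.810 in males and p = 0.667 in females (exact permutation test, two-sided).

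**Figure D5:**
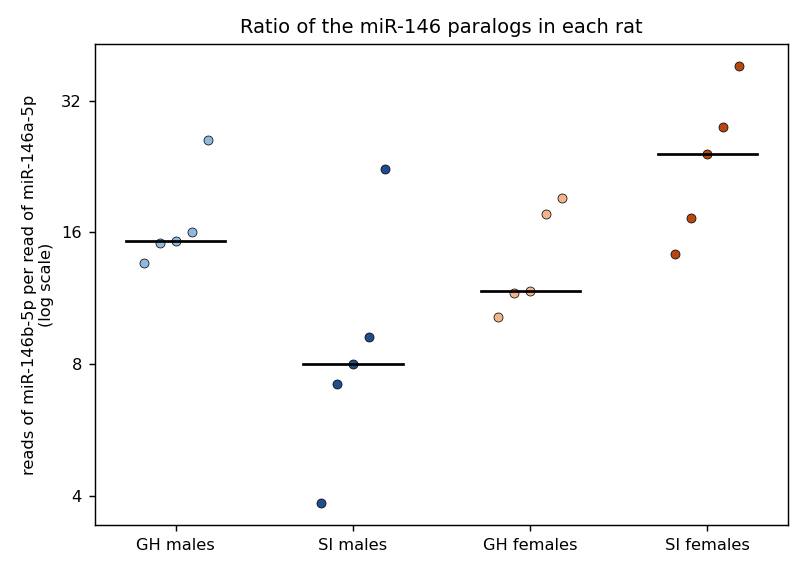
Reads of miR-146b-5p per read of miR-146a-5p in each of the 20 rats (vertical axis, log scale); horizontal lines are group medians. The medians are 15.3 in GH males, 8 in SI males, 11.8 in GH females, and 24.1 in SI females, and the groups overlap in each sex.

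The read forms of miR-146b-5p differed between SI and GH males before adjustment, and no share passed after it. The reference sequence made up 59.3% ± 2.49 (SD, n = 5) of its reads in SI males and 52.7% ± 1.81 (SD, n = 5) in GH males, with no overlap between the groups, and the p of 0.0079 is the smallest that 5 against 5 rats allow (exact permutation test, two-sided). The share of reads shortened at the 3′ end was 37.1% ± 2.71 in SI males compared to 43.5% ± 2.06 in GH males (SD, n = 5, exact permutation test, p = 0.0159). Over the 28 tests of shares, which covered 7 classes in miR-146b-5p and miR-21-5p in each sex, both had an adjusted p of 0.222 and did not pass, and 0 of 28 were called. In females the reference share was 55.2% ± 5.20 in SI and 54.1% ± 2.84 in GH rats (SD, n = 5, exact permutation test, p = 0.730). For the miR-21-5p forms, the reference share was 42.7% ± 3.32 in SI and 41.5% ± 1.71 in GH males and 41.0% ± 8.35 in SI and 40.0% ± 3.43 in GH females, differences of 1.20 and 1.03 percentage points that lay within the spread between rats (exact permutation test, p = 0.468 and p = 0.817). Of 55 isomiRs of the 7 miRNAs tested, 0 were called in males (0.00972% of all isomiRs), 0 in females (0% of all), and 0 over both sexes (0.253% of all) with edgeR. At an unadjusted p of 0.05, 1 of 55 passed in males (9.11% of all), 12 in females (9.22% of all), 13 over both sexes (14% of all), and 7 in the interaction (6.41% of all), where 0 were called. DESeq2 called 0 in males and 0 in females.

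miR-155-5p, which represses Socs1 and other inhibitors of inflammatory signaling, was read 36 to 475 times per library. In GH males its levels were 6.90 in G16M, 7.36 in G19M, 6.91 in G18M, 4.84 in G20M, and 6.49 in G21M. In SI males they were 6.80 in I15M, 7.37 in I19M, 7.58 in I22M, 7.60 in I17M, and 8.86 in I20M. Thus 4 of 5 SI males were above every GH male, by little in I19M. GH females ran from 5.90 to 7.58 (median 6.70) and SI females from 5.73 to 7.90 (median 7.13), with full overlap. The log2 fold change was 1.11 in males (standard error 0.54, unadjusted p = 0.0491, adjusted p = 0.214 with edgeR) and 0.60 without I20M. In females it was 0.30 (standard error 0.53, adjusted p = 0.779 with edgeR), but 0.016 without I17F, 0.57 without G13F, and −0.38 without I16F, I17M, and I17F. Over both sexes it was 0.71 (standard error 0.38, adjusted p = 0.199 with edgeR), and 0.39 without these 3 libraries. The SI male I20M also had the highest level of the choroid plexus marker miR-204-5p (16843 CPM, compared to 767 to 6570 CPM in the other 19 rats). The 3 miRNAs whose levels, centered on the group means, ran most like those of miR-155-5p over the 20 rats were miR-204-3p (Spearman's rho 0.81), miR-204-5p (0.79), and miR-34b-3p (0.65), compared to a median rho of −0.08 over 499 miRNAs. The part of choroid plexus in the miR-155-5p values was not tested. Its interaction was −0.81 (standard error 0.75, adjusted p = 0.870, edgeR).

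miR-142-5p, the more abundant arm of the microglial and blood-cell hairpin, was read up to 238 times per library and was listed at 0 in I16F. GH males ran from 5.91 to 7.54 (median 6.79) and SI males from 5.26 to 7.44 (median 6.91), and the log2 fold change was −0.07 (standard error 0.73, adjusted p = 0.990, edgeR). In GH females the levels were 5.85 in G15F, 7.37 in G12F, 7.87 in G16F, 5.75 in G13F, and 7.67 in G17F. In SI females they were 5.72 in I14F, 6.16 in I10F, 6.26 in I17F, and 6.25 in I12F, besides 0 in I16F. The 3 highest GH females were above every SI female, and the other 2 overlapped with them. The log2 fold change in females was −1.37 (standard error 0.74, adjusted p = 0.305, edgeR), and it was −1.02 without I16F. Over both sexes it was −0.72 (standard error 0.52, adjusted p = 0.358, edgeR) and the interaction was −1.30 (standard error 1.03, adjusted p = 0.828, edgeR).

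Levels of 7 pairs of miRNAs were correlated over the 20 rats after the group means were taken out, and 0 of 7 had an adjusted p below 0.05, while 3 of 7 had an unadjusted p below it. The highest were miR-146a-5p with miR-146b-5p (Pearson's r = 0.63, permutation p = 0.0185, adjusted p = 0.0647; Spearman's rho = 0.39, permutation p = 0.135) and miR-21-5p with miR-146a-5p (r = 0.62, permutation p = 0.0100, adjusted p = 0.0647; rho = 0.49, permutation p = 0.0635). Without the 2 rats farthest from the median of the miRNA named before the other, r was 0.52 for the former pair and 0.41 for the latter, and without I16F alone the former was 0.31. With the I17 libraries exchanged, both pairs passed in the permutation test. The former then had r = 0.81 (adjusted p = 0.00287) and the latter r = 0.66 (adjusted p = 0.0157). With DESeq2 size factors, r was 0.63 and 0.61, and both had an adjusted p of 0.0375 in the permutation test. miR-142-3p ran with miR-223-3p at r = 0.49 (permutation p = 0.0408, adjusted p = 0.0952; rho = 0.46, permutation p = 0.0495, and r = 0.45 without the 2 rats), and many of these values were 0. For the arms of miR-142, r was 0.31 (permutation p = 0.155, adjusted p = 0.271; rho = 0.39, permutation p = 0.0513, and r = 0.43 without the 2 rats). With miR-451-5p, a red-cell miRNA, r was 0.25 for miR-223-3p (permutation p = 0.354, adjusted p = 0.496; rho = 0.26, permutation p = 0.319, and r = 0.20 without the 2 rats). It was 0.09 for miR-142-3p (permutation p = 0.746; rho = 0.09, permutation p = 0.728, and r = 0.08 without the 2 rats). miR-142-3p with miR-146a-5p had r = 0.11 (permutation p = 0.653, adjusted p = 0.746; rho = 0.09, permutation p = 0.711, and r = −0.02 without the 2 rats).

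By the same measure of likeness used for miR-155-5p, the miRNAs closest to miR-21-5p were miR-181a-5p (rho 0.94), miR-16-5p (0.92), and miR-99a-5p (0.91), with a median of 0.14 over 499 miRNAs. Those closest to miR-146a-5p were miR-541-3p (0.73), miR-195-5p (0.72), and miR-26b-5p (0.71). Those closest to miR-146b-5p were miR-369-3p (0.80), the neuronal miR-124-3p (0.78), and miR-425-5p (0.77), with a median of 0.11. These values describe the 20 libraries, which also share depth and tissue makeup within a rat.

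Of the 5 partner arms of these hairpins, 4 were read and 1 had enough reads to be tested, miR-146b-3p, which was not called in any comparison with edgeR (log2 fold change −0.32 in males and −0.60 in females). Of 11 other miRNAs known from immune cells and macrophages, among them miR-150, miR-342, miR-511, and miR-147, 9 were tested. None was called in males or in females, where 0 and 3 were below an unadjusted p of 0.05. Over both sexes 2 of 9 were called, both lower in SI rats, compared to 10.2% of all miRNAs. At an unadjusted p of 0.05, 6 of 9 passed over both sexes (32.2% of all), the other 4 of them with estimates above 0, which were 0.96 for miR-150-3p, 0.36 for miR-342-3p, 0.54 for miR-342-5p, and 0.36 for miR-125a-5p. Those called were miR-181a-5p, which sets the signaling threshold of T cells and is abundant in neurons, at −0.40 (adjusted p = 0.0407, edgeR) and miR-212-3p, a CREB-driven miRNA of neurons and immune cells, at −0.44 (adjusted p = 0.0451, edgeR). Both had their lowest CPM of the 20 rats in I16F, at 3873 and 114, and no fit of them without I16F is given. The lymphoid miR-150-5p did not pass, with an estimate of 0.00 over both sexes and a standard error of 0.19, and its CPM overlapped between all groups, from 407 to 1248. For the 9 the median log2 fold change was 0.00, as for all 500 (−0.00).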

How the data were processed

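Small RNA libraries of adBNST punches from 20 rats, 5 per group, were made from 215 ng of RNA each and amplified in 22 PCR cycles. The authors trimmed adapters with cutadapt, aligned reads to miRBase v21 with seqbuster, and deposited raw counts for every distinct sequence, each with its mismatch, added bases, and end differences. Per the labels' processing notes FastQC and STAR were also used, and versions are not given in the sources used here. Coordinates and sequences are those of RefSeq (GRCr8), matched by name for all 7 miRNAs.

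Counts were summed per miRNA and per isomiR, with a sequence assigned to several miRNAs counted for each. Features with at least 10 counts in at least 5 libraries (500 miRNAs, 10290 isomiRs) were tested in 1 model of the 4 groups with edgeR 4.0.16 (TMM, quasi-likelihood F test, R 4.3.3) and Benjamini-Hochberg adjustment over all features, threshold 0.05. The standard error is the absolute log2 fold change over the root of F. Shares (miRNAs with a median of at least 500 reads) and ratios were compared with two-sided exact permutation tests over 252 assignments, and correlations with 100000 permutations within groups, in Python 3.11.15 with pandas 2.3.3, numpy 2.4.6, and scipy 1.17.1. The fits were tested on simulated data.

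Samples were grouped by their labels. The 7 miRNAs, all lists, and the tests were chosen with earlier results of these data known. The miRNAs named are the 7, listed ones past the threshold, the 3 most alike, and the 3 commonest forms of each. miR-126a-5p, miR-145-5p, and miR-219a-5p are named to give their lists whole. The arms miR-338-5p, miR-219a-2-3p, miR-145-3p, and miR-143-5p, and 4 immune miRNAs, were named after their values were seen. Alternatives were DESeq2 1.42.0, its size factors in edgeR, limma 3.58.1 voom with quality weights, no count filter or 10 counts required throughout, a fit of the compared groups alone, omission of each rat, exchange of the I17 libraries, omission of reads with several miRNAs or a mismatch, 0.5 added in ratios, and a replicate block. Fits without I17M and I17F, and without these and I16F, were chosen after seeing the data. No library was a copy of another (190 pairs, lowest chi-square per degree of freedom 79.0). Reads carry no molecular identifiers, so counting intervals cover counting error only.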

Additional observations from a re-analysis of the deposited data

Results flagged for a closer look

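In 28 groups of 5 rats tested, 4 values lay so far from the rest of their group that the gap exceeded 0.71 of the group's range. This is Dixon's critical value, which assumes continuous values. Each of the 4 flagged groups holds values at 0 reads, so no chance rate can be given for them. Where the other 4 rats are tied at 0, any read number exceeds the limit. The SI female I14F was at 5.53 (49 reads) for miR-223-3p, while the other 4 SI females were at 0. The same rat was at 4.14 (18 reads) for miR-142-3p, again with the other 4 at 0. The SI female I16F was at 0 for miR-142-5p, with the nearest SI female at 5.72. The GH male G18M was at 0 for miR-223-3p, with the nearest GH male at 3.82 (8 reads).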

How the results depend on the processing

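Counts of the 7 miRNAs called by edgeR changed under few settings. In males 1 was called, in place of 0, with limma voom, with only the male groups, and without I16F, I17M, and I17F. In females 1 was called, in place of 0, with DESeq2 and with 10 counts required in every library, and 0 to 1 with each rat left out, the 1 being miR-21-5p without I10F (adjusted p = 0.0393, edgeR). Over both sexes 0 were called, in place of 1, without I17M and I17F. Between SI females and SI males DESeq2 called 1 in place of 0, and 5 of all 586 miRNAs with an adjusted p. Over all 500 miRNAs the number called in males was 20, but 60 with DESeq2, 87 with limma voom, 89 with the male groups alone, 40 with 10 counts required in every library, 11 with the I17 libraries exchanged, 73 without I16F, I17M, and I17F, and 7 to 73 with each rat left out. In females it was 2, but 67 with DESeq2, 40 with 10 counts required in every library, and 1 to 63 with each rat left out. Over both sexes it was 88, but 132 with DESeq2, 50 without I17M and I17F, and 58 to 117 with each rat left out. Of the 4 ratios, 2 passed in place of 0 with the I17 libraries exchanged, and 0 to 1 with each rat left out (miR-146b-5p to miR-146a-5p in males without I17M, −1.32, adjusted p = 0.0317, exact permutation test). Of the 7 correlations, 2 passed in place of 0 with the I17 libraries exchanged and the same 2 with DESeq2 size factors. These were miR-146a-5p with miR-146b-5p and miR-21-5p with miR-146a-5p. With each rat left out, 0 to 3 passed (1 without G16M, 2 without I17F, and 3 each without I20M and without G12F).

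Values near 0 changed sign, and the cause was not tested. The miR-142-5p difference in males was 0.029 with the I17 libraries exchanged, 0.10 without them, 0.13 without these and I16F, and −0.29 to 0.17 with each rat left out. The miR-146b-5p difference in females was 0.045 with limma voom, 0.15 without I16F, I17M, and I17F, and −0.19 to 0.080 with each rat left out; over both sexes it was 0.012 without these 3. The miR-155-5p difference in females was −0.043 with limma voom and −0.38 without these 3. With each rat left out, miR-146a-5p over both sexes ran from −0.071 to 0.22, the reference share of miR-146b-5p in females from −0.93 to 2.53 percentage points and its shortened share from −3.30 to 0.51, the ratio of the miR-142 arms in males from −0.45 to 0.91, and r of miR-142-3p with miR-451-5p from −0.023 to 0.26. The r of miR-142-3p with miR-146a-5p was −0.019 without the 2 rats farthest from the median.

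Some rats of one sex share a number in both housing groups (2 numbers in males, 3 in females). Their deviations from the group means correlated at −0.30 to 0.09, with the lowest value in the pair that holds I16F. These few pairs cannot show whether a number marks a shared litter or batch, which was not tested. With the replicate block on these rats, 0 of the 7 were called in males and 0 in females, as without it, and the miR-142-5p difference in males was 0.53 with the block and 0.50 in the same rats without it. Depth limits miR-223-3p and miR-142-3p, with 422 and 221 reads in all, and 5 rats per group limit the permutation tests.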
